A study of Salmo salar with 12 samples.

Results

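The ovary was compared between the 2 ends of a maturation trial in female Atlantic salmon, and the CpG cytosines that whole-genome bisulfite sequencing covered in every ovary library were described by their starting level, their surroundings and their position. The members were the 5678324 CpG cytosines that all 4 ovary libraries listed with at least 10 reads each, out of 17209700 listed in any ovary library and 21901728 listed in any of the 12 libraries of the series (25.9% of the latter). The methylation level of a cytosine was its methylated reads as a percentage of its reads, and differences between levels are given in percentage points, called points here. Cytosines on the 2 strands were kept apart.

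All fish were females of a single management group held in tanks. T1 fish were killed immediately before a long-light photoperiod, which is used to bring on puberty, and so did not receive it, whereas T4 fish were killed at the last of the samplings after it had started. There were 2 ovary libraries at T1 and 2 at T4, each made from the snap-frozen tissue of a different fish, together with the same number from liver and pituitary. The T1 and T4 fish were different animals. By their titles, the T4 libraries of ovary and liver carry the same pair of fish codes, and the T1 libraries of ovary and liver share 1 code.

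In vertebrates most CpGs are methylated in most cells, and the unmethylated remainder is concentrated at promoters and other regulatory sequences. Intermediate levels in a tissue arise where cells, alleles or molecules differ, and they are common at the edges of unmethylated regions and at distal regulatory elements. An ovary entering maturation holds germ cells together with granulosa, theca, stromal and vascular cells, whose methylomes differ and whose proportions shift as follicles grow.

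The ovary libraries listed 10238078 to 12056957 cytosines, and the reads summed over them were 194844474 to 203062362. On the common set the median was 18 or 19 reads per cytosine in every library. The set lay 88.3% on the 29 chromosome sequences, and 3563979 of its cytosines were also listed in all libraries of the other 2 tissues.

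Averaged over the set, ovary methylation was 78.8% and 78.5% in T1 replicates 1 and 2, and 78.8% and 79.6% in T4 replicates 1 and 2. T4 replicate 2 stood above the rest, whereas T4 replicate 1 fell between the T1 libraries. The T1 mean, 78.6% ± 0.262 (SD, n = 2), and the T4 mean, 79.2% ± 0.525 (SD, n = 2), differed by 0.545 points (exact two-sided permutation test over the 3 pairings, p = 0.667). The other 2 pairings of the 4 libraries differed by 0.186 and 0.557 points, so the mean did not separate the time points. Without T4 replicate 2 the difference was 0.174 points. An exact test of 2 against 2 libraries cannot go below p = 0.333. Whole tissue was sequenced, and a change of methylation within cells and a change in the mix of cells cannot be told apart in any result given here.

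The time points came apart once the set was divided by level, though not in every merged class. CpGs between 20% and 60% made up 10.01% and 9.92% of the set at T1 and 10.2% and 9.28% at T4, so there the groups overlapped. CpGs between 5% and 40% made up 5.70% and 6.17% of the set at T1 and 5.19% and 4.32% at T4, so that both T4 libraries had fewer of them (difference of -1.18 points, exact permutation p = 0.333, against 0.198 and 0.670 under the other pairings). CpGs between 60% and 80% made up 18.4% and 17.97% at T1 and 19.3% and 19.4% at T4. Here too the groups did not overlap (1.22 points, exact permutation p = 0.333). At the top of the scale the order was reversed, with 40.8% and 41.3% of CpGs at 90% or more at T1 against 39.7% and 40.5% at T4. The T4 libraries thus held fewer CpGs at both low and very high levels and more at 60 to 80%.

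To follow CpGs from a given starting level, the level class was read from one T1 library and the difference was taken between T4 and the other T1 library, then averaged over both orders. In this way a chance low reading in the library that set the class could not return as a gain. For the 210312 CpGs at 20 to 40% in T1 replicate 1, the mean level was 32.6% in T1 replicate 2, 39.4% in T4 replicate 1 and 44.1% in T4 replicate 2. For the 212826 CpGs at 20 to 40% in T1 replicate 2, it was 38.7% in T1 replicate 1, 42.1% in T4 replicate 1 and 46.6% in T4 replicate 2. Both T4 libraries lay above the T1 reference in both orders, and the average gain was 7.42 points.

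**Figure D1:**
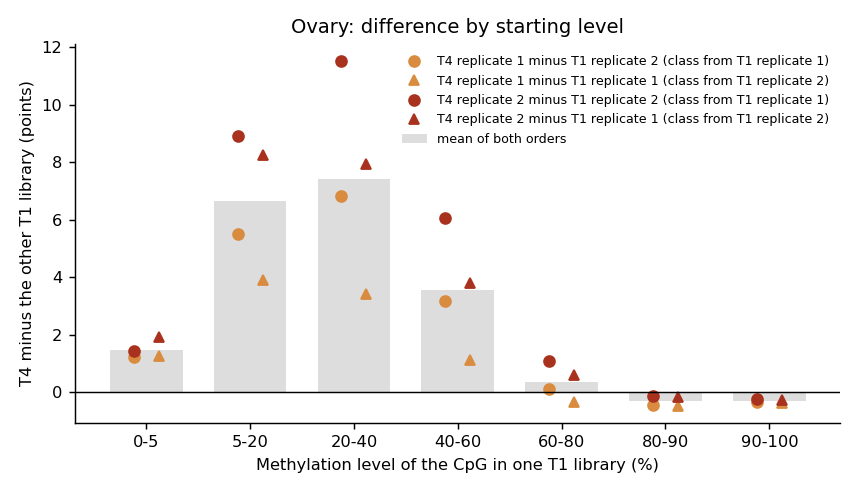
Difference between each T4 library and the T1 library that did not set the class, in percentage points, against the methylation level of the CpG in the other T1 library (%). Bars are the mean of both orders and points are single T4 libraries; the bars rise to 6.64 and 7.42 points at 5 to 20% and 20 to 40%, and lie just below 0 from 80% upwards.

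The gain was 1.46 points at 0 to 5%, 6.64 at 5 to 20%, 3.54 at 40 to 60% and 0.364 at 60 to 80%. It was -0.306 points at 80 to 90% and -0.309 at 90 to 100%. Weighted by the size of each class, CpGs that began at 20 to 40% contributed 0.276 points to the mean difference although they were only 3.73% of the set, and the 40 to 60% class contributed 0.221 points. The classes of 80 to 90% and 90 to 100%, with 25.8% and 41.0% of all CpGs, contributed -0.0789 and -0.127 points. With T1 classes, the small mean difference was therefore a gain at partly methylated CpGs less a slight fall at highly methylated ones. Reading the class from whole 1 kb tiles instead of single CpGs gave 7.30 points at 20 to 40%.

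The class was also read from a T4 library, which turns the direction of selection round. For CpGs at 20 to 40% in T4 replicate 1, the level was 41.7% in T4 replicate 2 against 35.2% and 32.4% in the T1 libraries. For CpGs at 20 to 40% in T4 replicate 2, it was 35.6% in T4 replicate 1 against 34.4% and 32.3%. The other T4 library again lay above both T1 libraries, by 7.86 and 2.19 points on average, so at 20 to 40% T1 was lower whichever time point set the class. This did not extend to the lowest levels: the other T4 library was above the T1 mean by 3.56 and 0.129 points at 5 to 20%, and differed from it by -0.787 and -1.02 points at 0 to 5%. In both classes from 5 to 40% the larger value had T4 replicate 2 as the library measured. At the top of the scale the differences were 0.140 and -0.132 points at 80 to 90%, and -0.00159 and -0.110 points at 90 to 100%. The slight fall at high levels was thus smaller with classes from T4, and at 80 to 90% its sign depended on the library. With the class from the mean of all ovary libraries, both T4 libraries lay below both T1 libraries in these classes. The differences were then -0.305 points at 80 to 90% and -0.194 points at 90 to 100%.

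Single CpGs at 20 to 40% varied widely around this average. With the class from T1 replicate 1 the median gain was 9.78 points, and 28.1% of CpGs rose by over 20 points while 6.22% fell by as much. With the class from T1 replicate 2 the median was 5.95 points, 19.1% rose by over 20 points and 6.72% fell. Counting error at these read numbers adds to that width.

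Across CpGs, the T1 libraries correlated with each other at a Pearson r of 0.843 and the T4 libraries at 0.829, while the 4 T1 with T4 pairs gave 0.807 to 0.829. Among the 1545190 CpGs with a mean level of 20 to 80%, r was 0.618 within T1, 0.541 within T4 and 0.469 to 0.541 across the time points. These correlations are across CpGs of a library, which are not independent replicates. The T1 libraries resembled each other most, and T4 replicate 2 was farthest from T1.

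The CpGs at 20 to 40% in the ovary did not gain in the other tissues. At CpGs with an ovary T1 level of 20 to 40%, the liver had mean levels of 61.4% and 61.6% at T1 and 60.9% and 60.8% at T4. The pituitary had 51.5% and 51.1% at T1 and 51.0% and 49.8% at T4. The differences of -0.667 and -0.848 points were opposite in sign to that of the ovary, and the T4 libraries lay below the T1 libraries in both tissues. These CpGs were on average more methylated in liver and pituitary than in the ovary at either time point. The negative sign was not particular to them. The pituitary mean was lower at T4 in every ovary class from 5% upwards, and the liver mean in those from 5 to 80%. At 0 to 5% in the ovary both tissues were higher at T4, by 0.933 points in the liver and 0.952 in the pituitary.

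The size of the ovary gain followed the level that the CpG had in the liver. Among CpGs at 20 to 40% in the ovary at T1, the ovary gained 2.68 points where the liver T1 libraries were under 20%, 4.13 at a liver level of 20 to 40%, 3.801 at 40 to 60%, 7.78 at 60 to 80% and 12.7 at 80% or more. Where the liver was at 80% or more, CpGs at 20 to 40% in T1 replicate 1 had 33.0% in T1 replicate 2, 45.4% in T4 replicate 1 and 52.8% in T4 replicate 2. With the class from T1 replicate 2 the levels were 43.7% in T1 replicate 1, 49.5% in T4 replicate 1 and 56.3% in T4 replicate 2. Both T4 libraries were above T1 in both orders. The steepest rise with the liver level was at 5 to 20% in the ovary, from 2.25 to 15.2 points.

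CpGs at 20 to 40% in the ovary were spread over all liver levels. With the class from T1 replicate 1, 51019 lay at a liver level of 80% or more and 13855 under 20%. Most lay in between, with 29810 at 20 to 40%, 33990 at 40 to 60% and 58672 at 60 to 80%. The T1 reference levels were not equal between the outer liver classes, at 38.3% where the liver was at 80% or more and 21.4% where it was under 20%. At 40 to 60% in the ovary the gain was 6.22 points for a liver level of 80% or more and 0.819 to 2.56 points below that. At ovary levels of 60 to 80% and 80 to 90%, gains averaged over both orders lay between -0.822 and 0.845 points at every liver level. Where the liver was under 20%, these averages joined opposite signs in the 2 orders. They were -4.18 and 3.38 points at 60 to 80%, and -6.30 and 5.89 points at 80 to 90%, from 418 and 717 CpGs. The orders also differed in sign there at 40 to 60%, with -1.38 and 4.79 points. At 90 to 100% the averaged gains lay between -0.701 and 0.319 points from a liver level of 20% upwards. Below that the value was 4.53 points, but it rested on 197 and 540 CpGs and had opposite signs in the 2 orders (-4.49 and 13.6 points).

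The pituitary divided the ovary CpGs less sharply. At 20 to 40% in the ovary the gain was 6.53 points where the pituitary T1 libraries were under 20%, 5.85 at 40 to 60% and 11.7 at 80% or more. Cross-classification used T1 libraries of the other tissue, because ovary and liver T4 libraries share fish codes. The T1 libraries of ovary and liver share a code too, so this choice did not keep shared fish out. With all 4 liver libraries the value at 80% or more was 13.4 points. At ovary levels of 80 to 90% the difference was then -7.61 points where the liver was under 20%. With the liver T1 libraries alone it was -0.200 points, the average of -6.30 and 5.89 points in the 2 orders. How far shared fish or shared cell types enter these values was not tested.

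**Figure D2:**
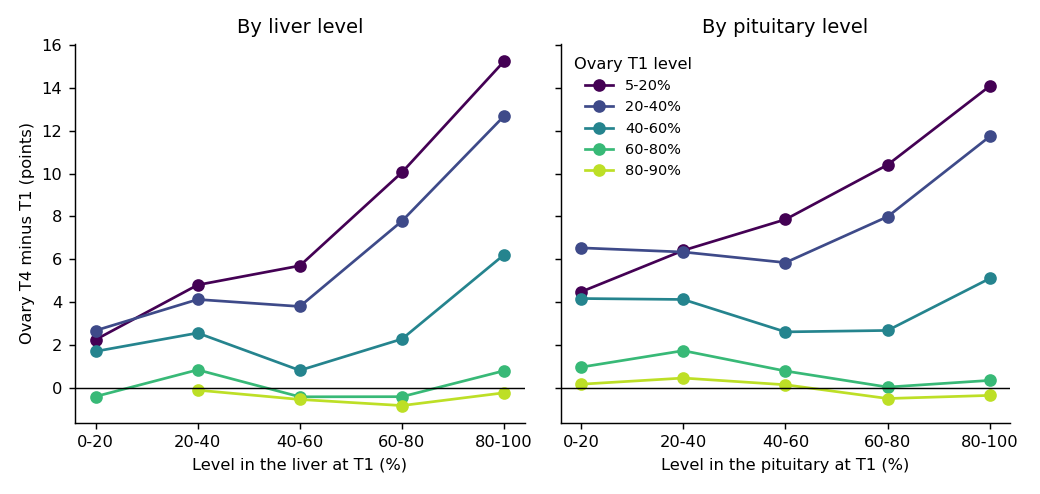
Ovary T4 minus T1 (points, vertical axis) against the level of the same CpG in the T1 libraries of the liver or the pituitary (%, horizontal axis), with 1 line for each ovary starting level. The lines for 5 to 20% and 20 to 40% climb to 15.2 and 12.7 points at a liver level of 80% or more, and the lines for 60 to 80% and 80 to 90% stay near 0. Points with fewer than 1000 CpGs and the 90 to 100% class are not drawn.

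Local CpG density, counted as the CpG positions that any file listed within 500 bp on either side, changed the difference little except at its extremes. The difference was 0.0833 points at 1 to 4 CpGs per kb, between 0.499 and 0.650 points from 5 to 29 per kb, 0.277 at 30 to 39 and 0.326 at 40 or more. Both T4 libraries were above both T1 libraries at 10 to 14, at 15 to 19 and at 40 or more per kb (exact permutation p = 0.333 in each), and not in the other classes. Within CpGs that began at 20 to 40%, the gain was 5.12 points in the sparsest class and 6.12 to 7.88 points in the others. The share of CpGs in that starting class fell from 5.60% at the sparse end to 0.877% at the dense end, so dense sequence had few CpGs of the kind that gained. Density was counted from the files, and a stretch with few covered CpGs is read as sparse.

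Position along the chromosome made almost no difference. The ovary difference was 0.546 points within 1 Mb of a chromosome end, 0.477 to 0.608 points in the next 5 distance classes and 0.558 points beyond 40 Mb. The gain at 20 to 40% was 7.15 to 7.94 points in all 7 classes. No class stood apart from the rest by as much as the spread between the T4 libraries.

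All 29 chromosome sequences had a higher mean at T4, and both T4 libraries lay above both T1 libraries on 13 of them (44.8%). T4 replicate 2 was the highest library and T1 replicate 2 the lowest on all 29, which is the order of the genome-wide means. CM003285.1 had the largest difference, with 77.4% and 77.1% at T1, 77.6% and 78.6% at T4 and a difference of 0.843 points, followed by CM003305.1 with 0.770 points. CM003291.1 had the smallest, with 79.4% and 79.0% at T1 and 79.3% and 80.02% at T4, a difference of 0.433 points, and CM003288.1 had 0.439 points. The gain at 20 to 40% was present on every chromosome and ranged from 6.97 to 8.68 points. On the unplaced scaffolds, with 661997 CpGs, it was 4.89 points and the mean difference was 0.400 points, so both lay below the range of the chromosomes.

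In 100 kb windows with at least 50 CpGs, the difference was again spread out. Both T4 libraries lay above both T1 libraries in 7121 of 21920 windows (32.5%) and below them in 2334 (10.6%). The pairing of T1 replicate 1 with T4 replicate 2 had 5919 windows above and 1215 below, and the pairing of T1 replicate 1 with T4 replicate 1 had 1872 above and 3459 below. The asymmetry of T4 against T1 was therefore like that of another pairing of the same libraries, and as a count of windows it did not single out the time points. Leaving out a library eases the condition on each window, so the share above cannot fall. It was 53.9% without T1 replicate 1 and 61.1% without T4 replicate 1, which does not measure a stronger difference. The median window differed by 0.494 points (5th to 95th percentile, -1.30 to 2.60), with 54 windows up and 13 down by over 5 points. Windows at 60 to 70% gained 1.18 points and windows at 85% or more changed by -0.0121 points.

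Unmethylated regions were called in each T1 library as at least 5 CpGs in a row under 20%, with steps of up to 300 bp. There were 11884 in T1 replicate 1 and 13422 in T1 replicate 2, with median lengths of 250 and 248 bp. CpGs inside them averaged 5.17% in the T1 library not used for the call, 6.55% in T4 replicate 1 and 7.53% in T4 replicate 2, a gain of 1.87 points. At 1 to 100 bp outside the regions the levels were 29.2%, 32.6% and 35.8%, a gain of 5.03 points. The gain was 4.53 points at 101 to 200 bp, 3.02 at 201 to 500 bp, 1.74 at 501 to 1000 bp and 0.865 at 1001 to 2000 bp. From there outwards it was 0.477 to 0.520 points, the level of the whole set. Unmethylated regions of the T1 ovary were thus bordered by a margin that was more methylated at T4. No regions were called at T4 for the reverse comparison. The margin within 100 bp began at 29.2%, and CpGs of the whole set at 20 to 40% gained 7.42 points. Distance was therefore not separated from starting level.

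**Figure D3:**
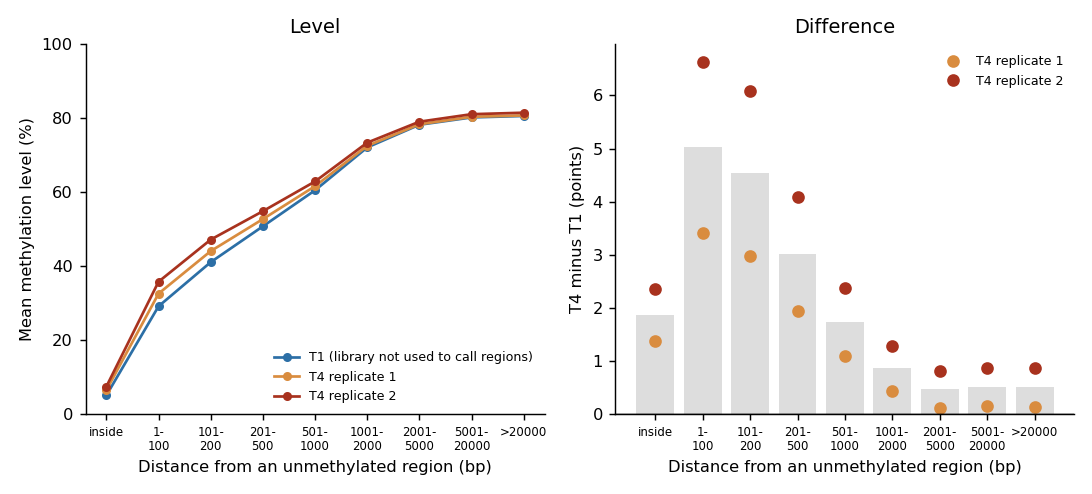
Left, mean methylation level (%) against distance from an unmethylated region of T1 (bp) for the T1 library not used to call the regions and for the T4 libraries. Right, the gain of each T4 library (points) with bars for their mean, which peaks at 5.03 points within 100 bp of the region and flattens to about 0.5 points beyond 2000 bp.

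Around the starts of 1693 genes whose positions were taken from the study's list of genes near pituitary regions, the levels next to the start did not separate the time points. In the first 500 bp of these genes the ovary had 26.8% and 25.5% at T1 and 26.7% and 27.3% at T4 (0.835 points, exact permutation p = 0.667). In the 500 bp upstream it had 38.9% and 38.0% at T1 and 38.2% and 39.3% at T4 (0.290 points, exact permutation p = 0.667). Beyond 5 kb within the gene it had 79.7% and 79.3% at T1 and 79.8% and 80.6% at T4, where the groups did not overlap (0.687 points, exact permutation p = 0.333). The groups also did not overlap at 2 to 5 kb upstream (0.717 points, exact permutation p = 0.333). At 1 to 2 kb within the gene the difference was 1.05 points (exact permutation p = 0.333). There T1 replicate 1 and T4 replicate 1 were both at 62.9%, so the groups were all but tied. CpGs at 20 to 40% gained 1.36 points in the 500 bp upstream, 5.33 points in the first 500 bp and 8.75 points beyond 5 kb. The course between was uneven, with 7.03 points at 500 bp to 1 kb, 1.83 at 1 to 2 kb and 6.43 at 2 to 5 kb. Farther upstream the gain was 2.65 to 6.30 points. Only 1840 and 1853 CpGs stood behind the values next to the start, and the genes were listed for lying near pituitary regions of the study, so they are no sample of all genes.

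Differentially methylated regions (DMRs) were called as runs of at least 3 CpGs over at least 50 bp with a Wald p under 0.001 and a difference of over 10 points. Single CpGs passed that p in 0.323% of the set with a higher and 0.0971% with a lower level at T4. There were 1891 DMRs, 1480 higher and 411 lower at T4. The other pairings of the same libraries gave 251 (131 and 120) and 339 (230 and 109). The T4 against T1 pairing thus had more DMRs than either other pairing in both directions, and most of the surplus was hyper-methylated at T4. Without T1 replicate 2 there were 1200 DMRs and without T4 replicate 2 there were 1001. The p-values are not adjusted for the number of CpGs, and with 3 pairings the smallest exact p remains 0.333.

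Hyper-methylated DMRs were short, with a median of 80 bp and 5 CpGs. Their median level was 25.7% and 20.03% in the T1 libraries and 49.9% and 57.2% in the T4 libraries. The libraries did not overlap in 1438 of the 1480 (of all 1 kb tiles, 19.6% had both T4 libraries above and 17.4% both below both T1 libraries), and only 59 differed by over 50 points. T1 levels of 5 to 20% accounted for 557 of them and 20 to 40% for another 559. Being chosen for an increase in these same libraries, they had to start low and were bound to have little overlap. The tiles were longer and were not chosen in this way. These levels and the lack of overlap therefore describe the regions and test nothing.

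What the choice did not use was the level in the other tissues. At the hyper-methylated ovary DMRs the median liver level was 77.1% and 79.2% at T1 and 79.5% and 80.3% at T4. The median pituitary level was 55.3% and 59.6% at T1 and 66.2% and 64.7% at T4. At the median, partial methylation of the ovary at T1 therefore met a high liver level at both times. The liver mean over all its listed CpGs was 82.1 to 82.2%. This is a mean of single CpGs over a wider set, so its distance from a median of DMRs is not a like comparison. The 25th percentile of these DMRs was 52.9% and 60.6% in the liver T1 libraries, so not all of these sites were highly methylated there. The ovary difference was shared by the liver, in the same direction and over 20 points, at 160 of 1405 (11.4%), and by the pituitary at 190 of 1394 (13.6%). At 799 of the 1355 covered in both, the difference was under 10 points in both.

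Hypo-methylated DMRs looked different in the other tissues. Their median level was 72.5% and 72.7% at T1 and 35.9% and 33.9% at T4 in the ovary. In the liver it was 73.7% and 60.7% at T1 and 50.8% and 37.3% at T4, and in the pituitary the T1 libraries had 67.2% and 57.5% and the T4 libraries 31.5% and 28.5%. The same-direction difference exceeded 20 points at 163 of 373 in the liver (43.7%) and at 182 of 379 in the pituitary (48.0%). The share that moved with another tissue, whose libraries came partly from the same fish, was higher for losses than for gains of the ovary. The room to move was not equal. Liver T1 medians of 77.1% and 79.2% at hyper-methylated DMRs left little room for a rise of over 20 points. The pituitary T1 medians there were 55.3% and 59.6%. The contrast was not itself tested, and no such share is given for all tiles. Leaving out every DMR that differed by over 20 points the same way in liver or pituitary, a set defined after the data were seen, left 1434 DMRs. Of these, 1246 were higher and 188 lower at T4, and the same limit applies to them.

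**Figure D4:**
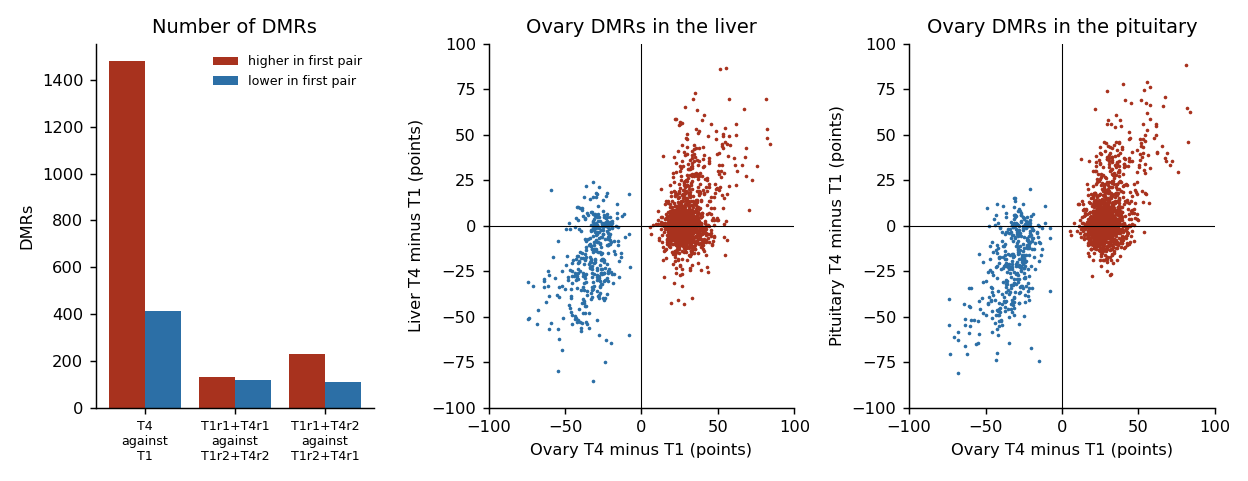
Left, number of DMRs higher or lower in the first pair of libraries under each of the 3 pairings (r, replicate). Middle and right, T4 minus T1 in liver and pituitary (points) against T4 minus T1 in the ovary for each ovary DMR; hyper-methylated DMRs (red) centre near 0 in the other tissues, with medians of 0.874 and 1.72 points, and hypo-methylated DMRs (blue) lie mostly below 0, with medians of -17.1 and -18.8 points.

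The difference between the T4 libraries gave a related description. Across the 351 hypo-methylated DMRs covered in all tissues, T4 replicate 1 minus replicate 2 in the ovary correlated with the same difference at a Pearson r of 0.378 in the liver and 0.676 in the pituitary. Across the 1355 hyper-methylated DMRs it was -0.0220 in the liver and 0.358 in the pituitary. At T1 the ovary shares 1 fish code with each other tissue. The titles and another label of the ovary T1 libraries exchange their fish codes, so the replicate number of the shared fish is not settled. For the T1 libraries the values were 0.353 in the liver and 0.360 in the pituitary across hypo-methylated DMRs, and 0.183 and 0.187 across hyper-methylated ones. DMRs are not independent points, and the T4 libraries of ovary and liver carry both fish codes in common while those of ovary and pituitary carry 1. The part that differences between fish take in the calls was not tested.

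DMRs were most frequent at middling CpG density. Hyper-methylated DMRs numbered 7.47 per 100000 CpGs at 1 to 4 CpGs per kb, 37.0 at 15 to 19, 31.5 at 20 to 29 and 4.56 at 40 or more. Hypo-methylated DMRs followed the same course, from 1.07 through 12.1 at 20 to 29 to 2.28 per 100000. A run of 3 CpGs within a short stretch is harder to meet in sparse sequence, so the low end reflects the definition as well. Hyper-methylated DMRs overlapped an unmethylated region of T1 in 553 cases (38.8% of those on sequences with such a region), although such regions held 2.43% of the CpGs. Only 13 hypo-methylated DMRs did (3.31%). Both the regions and the calls used the T1 levels, so this overlap is a description.

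Along the chromosomes, hyper-methylated DMRs numbered 31.3 per 100000 CpGs in the outermost 1 Mb and 23.8 to 28.6 in the other distance classes. They outnumbered hypo-methylated ones on all 29 chromosome sequences, with a share of 66.2 to 90.9%, and ranged from 13.8 to 44.8 per 100000 CpGs.

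The 8 largest increases and 8 largest decreases among DMRs with at least 5 CpGs, no overlap between the groups and no excess coverage were examined library by library. They are regions of the ICSASG_v2 assembly, and genes are named only where the study's partial list gave a position in that assembly. The increase with the lowest starting level was at CM003280.1:14592552-14592643, with 0.735% and 0.909% at T1 and 82.2% and 87.3% at T4 over 8 CpGs. In this region the liver T1 libraries had 1.55% and 53.4% and the T4 libraries 54.6% and 90.6%. The pituitary had 1.60% and 42.9% at T1 and 85.5% and 84.6% at T4. The ovary T1 libraries both lay at the unmethylated end, whereas the other tissues included a T1 library near the middle of the scale.

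Such steps between libraries of a group recurred. At CM003288.1:111953763-111953961, inside the gene for cingulin-like protein 1 (LOC106561766), a cell junction protein in mammals, the ovary had 4.33% and 0.529% at T1 and 91.2% and 50.1% at T4. The liver had 0.741% and 59.5% at T1 and 93.2% and 52.7% at T4, and the pituitary had 2.94% and 56.2% at T1 and 85.1% and 45.6% at T4. A neighbouring DMR of the same gene, at CM003288.1:111954025-111954104, had 1.54% and 2.40% at T1 and 74.1% and 64.9% at T4 in the ovary. In both other tissues the T1 libraries were thus near the bottom and the middle of the scale, and the T4 libraries near the top and the middle.

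Among the other increases, CM003305.1:39773603-39773694 lay inside a gene for a KIAA1522 homolog (LOC106589094) and had 12.9% and 9.57% at T1 and 94.7% and 92.1% at T4. The DMR at CM003279.1:63836692-63836782 lay 2009 bp upstream of hmx3, a homeobox transcription factor of the inner ear and hypothalamus in mice. It had 9.30% and 24.4% at T1 and 90.7% and 94.3% at T4. A DMR at CM003286.1:3543076-3543227, inside the gene for the vesicle calcium sensor double C2-like domain-containing protein beta (LOC106609963), had 25.7% and 21.0% at T1 and 87.3% and 94.1% at T4. The remaining increases, at CM003283.1:46453666-46453785 and CM003305.1:2156471-2156630, were by 75.2 and 68.6 points and matched no listed gene.

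Of the decreases, the largest was at CM003280.1:68597752-68597828, inside a zinc finger protein gene (LOC106594299). The ovary had 89.6% and 68.1% at T1 and 1.67% at T4 replicate 1, and 0 of 59 reads were methylated in T4 replicate 2, so the level there could be up to 5.08%. At CM003287.1:139256505-139256623, downstream of a gene for a BCL9-like protein (LOC106613392), a co-activator of Wnt signalling, it had 91.2% and 98.3% at T1 and 23.5% and 18.98% at T4. The liver there had 89.3% and 87.9% at T1 and 49.2% and 27.1% at T4. This was a region in which both T1 libraries of every tissue were above both T4 libraries.

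Inside the gene for a GABA transporter (LOC106565344), at CM003290.1:49766333-49766390, the ovary had 84.6% and 90.1% at T1 and 2.23% and 36.3% at T4. The liver had 86.3% and 91.2% at T1 and 1.85% and 68.1% at T4, so the gap between the T4 libraries was found in both tissues. Upstream of a gene for a ladderlectin-like protein (LOC106580088), a lectin of fish blood, CM003298.1:14147381-14147480 had 94.6% and 57.0% at T1 and 4.41% and 11.6% at T4. The other 4 decreases, which matched no listed gene, lay at CM003279.1:21447245-21447316, CM003287.1:98262852-98262935, CM003305.1:4952819-4952916 and CM003287.1:25631141-25631226, with differences of -74.2, -74.0, -70.9 and -61.1 points. Of the 16 named DMRs, 14 were covered in all 4 liver libraries, and at 11 of these the liver libraries of a single time point differed by over 30 points. In the pituitary this was so at 8 of 13, and in the ovary, where the groups could not overlap by choice, at 3 of 16. Among all ovary DMRs the share was 17.4% in the liver and 14.3% in the pituitary, and among all 1 kb tiles, which are longer, 1.27% and 1.43%. The T4 and T1 libraries did not overlap, in the direction of the ovary, at 7 of 14 in the liver and 10 of 13 in the pituitary. The shares over all features pool higher and lower DMRs whatever their direction in the ovary, so they are not the same measure. Among all ovary DMRs the T4 libraries lay above T1 in 18.9% and below in 22.7% in the liver, and in 21.8% and 23.3% in the pituitary. For all tiles these shares were 16.7% and 16.9% in the liver and 14.3% and 20.1% in the pituitary. The named DMRs were chosen for their size in the ovary, and no test was made of these counts.

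**Figure D5:**
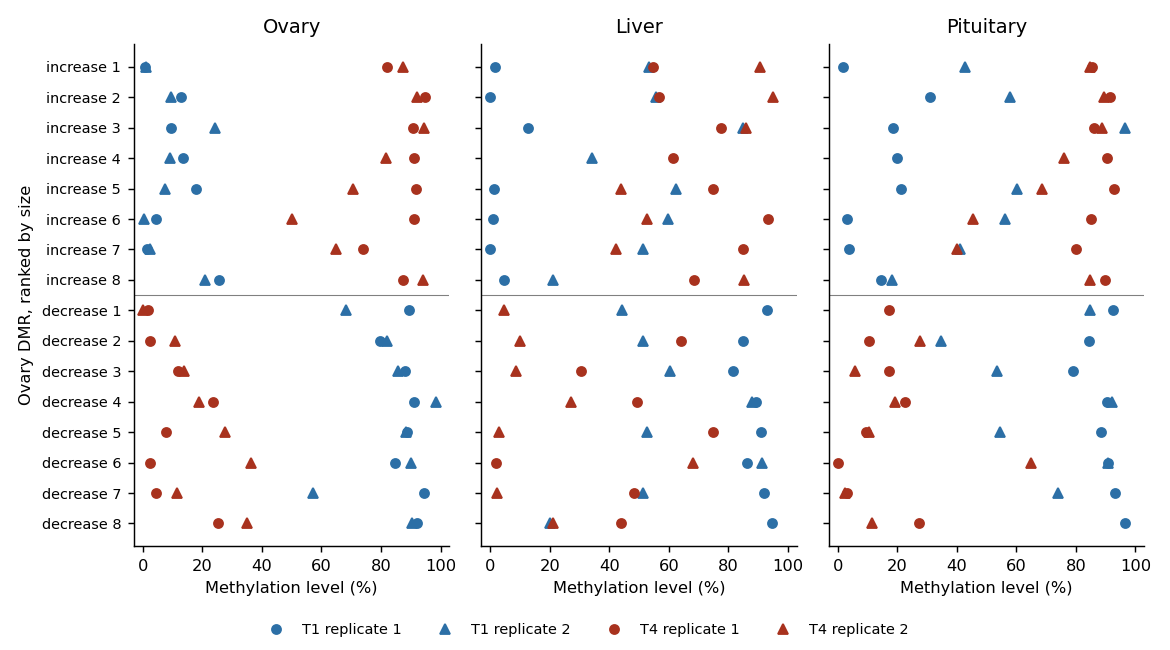
Methylation level (%, horizontal axis) of each library at the 8 largest ovary increases and the 8 largest decreases, ranked by size from the top of each block, in ovary, liver and pituitary (blue, T1; red, T4; circle and triangle, replicates 1 and 2). The ovary libraries separate by time point by construction, and at 11 of 14 regions in the liver and 8 of 13 in the pituitary the libraries of a time point lie over 30 points apart.

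Genes of pathways linked to ovarian growth were looked up in the same partial list, which gave positions for 2063 genes. Of the 1891 DMRs, 338 lay inside or within 5 kb of a listed gene (221 higher, 117 lower). Since the study listed genes for lying near its own regions, these counts are not independent of the comparison, and a gene without a match says nothing. Of all 2063 listed genes, 263 (12.7%) had a DMR inside or within 5 kb. Among extracellular matrix genes, 3 of 19 had a DMR and all 3 DMRs were higher at T4. Of genes named for semaphorins, which guide axons and vessels, or for plexins, their receptors, 3 of 12 had one (2 higher, 1 lower). One of these encodes a plexin domain-containing protein, which is not a plexin receptor, and without it there was 1 DMR in each direction. The count was 3 of 10 for glutamate receptor genes (3 higher, 2 lower, with 2 genes holding a pair each). These counts were not tested against the 12.7%. Of 9 gonad transcription factor genes 1 had a DMR, and none was found at the 1 chromatin remodelling, 4 follicle growth factor, 3 steroid and gonadotropin and 4 germ cell genes listed.

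The DMRs of the 3 matrix genes are given as values, since a DMR called higher has to start low. In the gene for spondin-1 (LOC106562306), a secreted matrix protein, a DMR at CM003289.1:23581777-23581863 had 12.7% and 3.30% at T1 and 27.1% and 48.8% at T4 in the ovary, against 67.5 to 79.0% in the 4 liver libraries. A DMR in a collagen alpha-1(VII) gene (LOC106565565) had 29.8% and 13.7% at T1 and 40.9% and 52.7% at T4, with 68.0 to 79.2% in the liver. In the gene for the secreted protease ADAMTS6 (LOC106568319), included for its thrombospondin motifs, the ovary had 21.8% and 33.5% at T1 and 56.5% and 58.5% at T4. The first 2 were regions that the liver held methylated throughout, whereas at ADAMTS6 the liver itself ran from 2.91% to 81.9%.

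Nuclear factor 1 A-type (LOC106574075), a transcription factor, had a DMR inside the gene with 11.7% and 3.81% at T1 and 25.003% and 42.0% at T4 in the ovary. The liver had 80.4 to 93.5% there and the pituitary 11.3 to 29.2%. The ovary lay at or under the pituitary values at T1, and both T4 libraries stayed below every liver library.

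Semaphorin-6D genes, which encode transmembrane guidance ligands, moved in both directions. LOC106580978 had 39.8% and 32.8% at T1 and 49.5% and 61.0% at T4, whereas LOC106588355 had 62.7% and 32.6% at T1 and 9.93% and 6.21% at T4 over 14 CpGs. At the latter the liver also went from 69.2% and 51.4% at T1 to 43.1% and 7.34% at T4, and the pituitary from 71.6% and 61.2% to 8.61% and 19.98%. A plexin domain-containing protein 2 gene (LOC106590128) had 40.0% and 35.04% at T1 and 69.0% and 75.2% at T4. Its DMR held only 3 CpGs and 32 to 54 reads per library.

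Glutamate receptor genes were similarly mixed. Upstream of a glutamate receptor 3 gene (LOC106612189), which encodes a subunit of AMPA receptors, a DMR had 42.7% and 40.4% at T1 and 2.30% and 2.22% at T4, and its neighbour had 15.1% and 32.8% at T1 and 1.23% and 3.27% at T4. A kainate receptor gene (LOC106612471) had 24.0% and 15.3% at T1 and 55.2% and 52.2% at T4, with 66.6 to 88.9% in the liver. In the metabotropic glutamate receptor 3 gene (LOC106561201) a DMR of 16 CpGs had 59.9% and 18.4% at T1 and 72.2% and 80.3% at T4. A second DMR of that gene had 37.4% in T1 replicate 1 and 74.8% and 74.7% at T4, and 0 of 128 reads were methylated in T1 replicate 2, so the level could be up to 2.34%. There the gap between the T1 libraries was about as large as the step from T1 replicate 1 to T4, and the difference of the means was 56.1 points. The pituitary was higher at T4 there too, with 39.8% and 60.7% at T1 and 85.5% and 92.4% at T4. The liver libraries ran from 1.25% to 83.5%.

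As a test with replicate spread, methylated and unmethylated reads were summed over 734553 tiles of 1 kb and compared by the quasi-likelihood F test of edgeR. With a threshold of 0.05 on the adjusted p by edgeR (Benjamini-Hochberg over all tiles), 487 tiles were higher (0.0663%) and 266 lower (0.0362%) at T4, against 8 and 5, and 7 and 6, under the other pairings. The surplus of higher tiles depended on single libraries. Without T4 replicate 2, higher and lower tiles were nearly equal in number, and without T1 replicate 2 the surplus was also smaller. With T1 replicate 1 or T4 replicate 1 left out it was larger. Such fits keep a single library in a group. The tiles higher at T4 had a median level of 20.3% at T1 and 60.9% at T4, and 279 of them (57.3%) held a DMR of the same direction. Those lower at T4 had 72.0% and 23.3%, and 145 (54.5%) held one. The limma test on log2 ratios called 0 tiles at an adjusted p of 0.05, with 51712 tiles at an unadjusted p under 0.05, against 56041 by edgeR.

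Higher tiles differed by over 20 points the same way in the liver at 122 of 467 and in the pituitary at 168 of 475. For lower tiles these counts were 123 of 255 and 146 of 256. The tiles called by edgeR, which need a large change against the spread, shared their direction with the other tissues more often in the lower than in the higher class. The DMRs did so too. This contrast itself was not tested, and starting levels in the other tissues were not matched.

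The 5 tiles with the smallest p in each direction had adjusted p of 8.79e-08 to 1.82e-05 by edgeR. The tile at CM003292.1:30150000-30150999 had 1.47% and 0.881% at T1 and 58.2% and 44.6% at T4 in the ovary over 13 CpGs, with a mean of 27.2% at T1 and 30.4% at T4 in the liver and 27.9% and 47.7% in the pituitary. At CM003295.1:48236000-48236999 the ovary had 8.70% and 5.76% at T1 and 90.7% and 90.4% at T4, and the liver rose from a mean of 1.79% to 69.8%. At CM003293.1:43647000-43647999 the ovary T1 libraries had 0 of 72 and 0 of 118 methylated reads, so that levels of up to 4.17% and 2.54% are allowed, against 94.0% and 87.6% at T4. The first of these was the only one of the 5 higher tiles in which the liver differed by less than 20 points.

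Of the lower tiles, CM003292.1:3859000-3859999 had 53.7% and 49.4% at T1 and 3.48% and 1.74% at T4 over 18 CpGs and 460 to 711 reads per library. Liver and pituitary were also lower at T4 there, from means of 27.4% to 2.43% and 24.7% to 2.64%. On the scaffold AGKD04014883.1, the tile from 8000 to 8999 had 27.1% and 23.6% at T1 and 0.889% and 1.02% at T4. The remaining named tiles, at 14592000 of CM003280.1, 39773000 of CM003305.1, and 139256000, 25631000 and 98262000 of CM003287.1, each held a DMR already described.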

How the data were processed

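The authors trimmed reads with Trim Galore 0.5, aligned them to bisulfite-converted ICSASG_v2 with BS-Seeker2 2.1.8 and Bowtie2, removed duplicates with Picard and called methylation with BS-Seeker2. The deposited files hold a raw count of reads and of methylated reads for each CpG cytosine with at least 10 reads, without normalisation, so level and coverage limits act on counts. Read totals and median reads are given above; for a level of 0 the upper limit is 3 counts of the reads and covers counting error only.

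Groups came from the sample labels. The members and gene lists were chosen with earlier results of these data known. Library means were compared by exact two-sided permutation tests of 2 against 2 libraries. DMRs were called after the published approach of DSS, rewritten with numpy 2.4.6, numba 0.67.0 and scipy 1.17.1 under Python 3.11.15, with smoothing over 500 bp, a neighbour correlation of 0.161 estimated from replicate differences, joining within 50 bp and at least 50% of CpGs past the threshold. Tiles had at least 3 common CpGs and were tested with edgeR 4.0.16 (library effect plus group terms) and, as an alternative, limma 3.58.1 with a pseudocount of 1, in R 4.3.3. Named regions were the 8 largest DMRs in each direction with at least 5 CpGs, no overlap between groups and coverage up to 3 times the median, the 5 tiles with the smallest p in each direction, the 2 chromosomes with the largest and smallest difference, and DMRs inside or within 5 kb of listed genes. Gene positions came from the study's own partial gene list, and no genome of this build was used, so no sequence is shown. Of its gene IDs, 234 matched a table of gene names. Alternatives were stricter read limits, other tile, window and density settings, other DMR settings and leaving out each library. Both callers were checked on simulated reads with known shifts. In these data CpGs varied independently of their neighbours, and the shifted tiles began at middle levels. The check therefore does not cover correlation between neighbours or tiles with low starting levels.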

Additional observations from a re-analysis of the deposited data

Results flagged for a closer look

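At CpGs with an ovary T1 level of 20 to 40%, the T4 minus T1 difference had opposite signs in different tissues. It was 7.42 points in the ovary, with both T4 libraries above T1, and -0.667 points in the liver and -0.848 points in the pituitary, with both T4 libraries below both T1 libraries. The ovary difference exceeded that of the liver by 8.08 points and that of the pituitary by 8.26 points, and these differences between tissues were not tested. The CpGs were chosen by their ovary level, so the other tissues were not at the same starting level. The pituitary mean was lower at T4 in every ovary class from 5% upwards, and the liver mean in those from 5 to 80%. The negative sign was therefore not particular to these CpGs.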

How the results depend on the processing

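With 2 libraries a group, no single-value test could pass 0.05, and no alternative turned the direction of a result listed below. Some values of single classes did turn. At 20 to 40% in the ovary with the liver under 20%, the gain was 2.68 points with the liver T1 libraries and -0.214 with all 4. At 0 to 5% it was 1.46 points with the class from T1, and -0.787 and -1.02 with the class from T4. Without each library in turn, the mean difference was 0.174 to 0.916 points, the gain at 20 to 40% 5.11 to 9.73, that gain at a liver level of 80% or more 9.14 to 16.2, and the gain within 100 bp of unmethylated regions 3.42 to 6.64; the lower ends lacked T4 replicate 2. Without T1 replicate 1 or T4 replicate 1, 53.9% and 61.1% of windows lay above (range 39.1 to 61.1). This share cannot fall when a library is left out, so its range is no measure of robustness. Tiles called by edgeR, 753 in all, numbered 566 (without T4 replicate 2) to 1618 (without T1 replicate 1), with 1155 without T4 replicate 1. They numbered 232 at 20 reads or more, 403 at 8 CpGs, 498 with all 12 libraries in the fit and 0 by limma. Replicate numbers do not pair the fish of T1 and T4, and adding the replicate block gave 3539 tiles. DMRs, 1891 in all, numbered 1001 (without T4 replicate 2) to 2453 (without T1 replicate 1), with 1200 without T1 replicate 2. They numbered 519 at p under 1e-05, 446 at 20 reads, 186 with a correlation of 0.8 and 162 without smoothing. Hyper-methylated DMRs made up 60.5 to 82.9% under these settings, and 78.3% in the reported calls. Single-CpG levels rest on a median of 18 or 19 reads, which limits their precision more than that of class means. Settings for the liver level, whole-tile classes and the set without shared DMRs were chosen after seeing the data.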
